A study of Mus musculus with 3 samples.

Results

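DNA repair and checkpoint genes were followed in granulocyte progenitors, the bone marrow precursors that give rise to granulocytes. The set holds 46 genes, taken by symbol from 24421 gene symbols in the deposited tables, and all 46 were found in every library. All 46 also reached an RPKM (reads per kilobase of gene model, scaled to library size) of at least 1 in 1 or more libraries, the filter that left 10658 genes to compare. The study sorted these progenitors by flow cytometry from the bone marrow of female mice and sequenced 1 library per group. NTB is the control, from mice without a tumor. 4T1-TB is from mice that carried 4T1 cells, a mouse mammary carcinoma line, implanted orthotopically. IRF8-deficient is from mice that lack function of IRF8, a transcription factor of monocyte and dendritic cell development. Mice of the NTB and 4T1-TB groups were F1 animals of H-2b/d type, whereas IRF8-deficient mice were C57BL/6 (H-2b). Strain and IRF8 status therefore cannot be told apart in any comparison with the IRF8-deficient library. The labels name neither the mice's ages nor how many were pooled.

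DNA damage is met by sensors, signaling kinases and repair enzymes. Double-strand breaks activate the kinase ATM, and stalled forks activate ATR, which signal through CHK2 and CHK1 to p53 and the cell cycle machinery. Damaged bases are cut out by base excision repair, bulky lesions by nucleotide excision repair, replication errors by mismatch repair, crosslinks by the Fanconi anemia pathway, and breaks are joined by homologous recombination or by end joining. Progenitors in the marrow divide often, and many recombination and mismatch repair genes are transcribed with the cell cycle. Cells that mature into neutrophils leave the cycle.

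With a single library in each group there is no replicate error, so the differences carry no test and describe these 3 libraries. Reads behind the RPKM values could be recovered and came to 43011577 (NTB), 23762703 (4T1-TB) and 36389154 (IRF8-deficient), and the 46 genes took 0.400%, 0.340% and 0.225% of them. Intervals are exact at 95% and cover counting error only. A gene was called higher or lower where log2(RPKM + 1) differed by 1 or more, that is 2-fold on that scale, which understates the difference of low genes. Irf8, the gene lost in the deficient mice, had an RPKM of 43.8 (NTB), 8.60 (4T1-TB) and 13.7 (IRF8-deficient), and a value per gene does not show which exons were read. The ribosomal RNA precursor Rn45s took 1.76%, 6.22% and 13.6% of reads. Each of the 6 granulocyte progenitor markers was detected in each library, with a summed RPKM of 16426, 19364 and 9603. The 10 late neutrophil markers summed to 5617, 7568 and 88177. All 10 were called higher in IRF8-deficient than in NTB, where 8.78% of all genes compared were. The 6 monocyte and macrophage markers summed to 111, 42.2 and 94.0, and the 4 tumor epithelium markers to 6.15, 2.09 and 0.254. Alpha and beta globin genes were listed at 0 in all libraries, while Cd79b, a B cell receptor component, had 16.4, 12.3 and 10.3. In bulk RNA fewer cells of a type and less RNA per cell cannot be told apart.

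The repair genes had levels near those of all genes compared. In NTB they ranged from an RPKM of 1.18 for Rad51c to 131 for Ddb1, with a median of 14.0 against 12.1 over all genes compared. The median of the 46 was 11.1 in 4T1-TB and 11.5 in IRF8-deficient, beside 12.1 and 12.5 over all genes compared. Levels rested on 61 to 24354 reads in NTB, 80 to 14124 in 4T1-TB and 139 to 10180 in IRF8-deficient. The plot of levels shows each gene in the 3 libraries. The ratio of the highest to the lowest library was 1.08 for Blm and 1.10 for Nbn, and reached 3.91 for Gadd45g and 3.80 for Apex1.

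**Figure D1:**
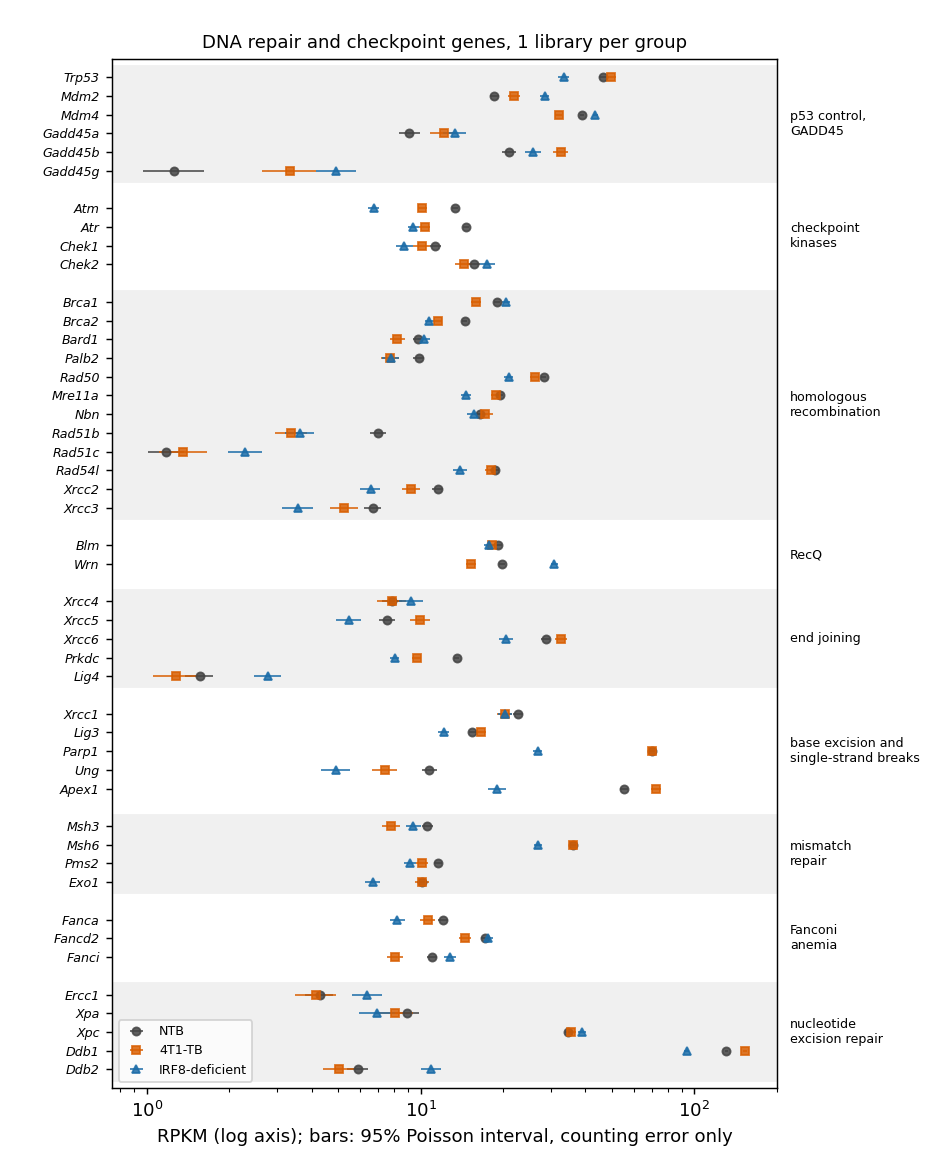
RPKM of the 46 genes in the 3 libraries on a log axis, grouped by role. Points are single libraries and bars are 95% Poisson intervals for counting error only. Apex1 and Parp1 sit far lower in IRF8-deficient (19.0 and 26.7) than in the other libraries, and Gadd45g is lowest in NTB (1.26).

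The comparison of 4T1-TB with NTB asks how progenitors from tumor-bearing mice differ from those of controls. None of the 46 genes was called in either direction (3.02% of all genes compared were called, 1.67% higher and 1.35% lower). The differences ran from −0.87 for Rad51b to 0.94 for Gadd45g, and 43 of 46 (93.5%) were smaller than 0.5 in size, as were 87.2% of all genes compared. Their median was −0.12, beside 0.01 over all genes compared, with 17 genes above 0 and 29 below. By the counting interval alone 10 members were higher and 21 lower, where 36.1% and 32.1% of all genes were. Such intervals exclude 1 for most well-read genes and leave out variation between animals.

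The comparison of IRF8-deficient with NTB asks how progenitors differ where IRF8 function is missing. Apex1 and Parp1, both of the repair of damaged bases and single-strand breaks, were lower, and Gadd45g, a stress-inducible gene, was higher. These 3 calls among 46 genes stand beside 14.5% of all genes called, of which 8.78% were higher and 5.73% lower. The members' median was −0.32 against −0.02 over all genes, with 17 above 0 and 29 below, and 60.9% of members and 58.8% of all genes were under 0.5 in size. By the counting interval alone 15 members were higher and 28 lower, where 40.7% and 43.5% of all genes were. IRF8-deficient against 4T1-TB gave 2 calls, Apex1 and Parp1, both lower (15.9% of all genes were called, 8.83% higher and 7.07% lower). The median there was −0.12, and by the counting interval 16 members were higher and 24 lower, beside 41.1% and 41.2% of all genes. The comparisons share libraries in pairs and are not independent.

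**Figure D2:**
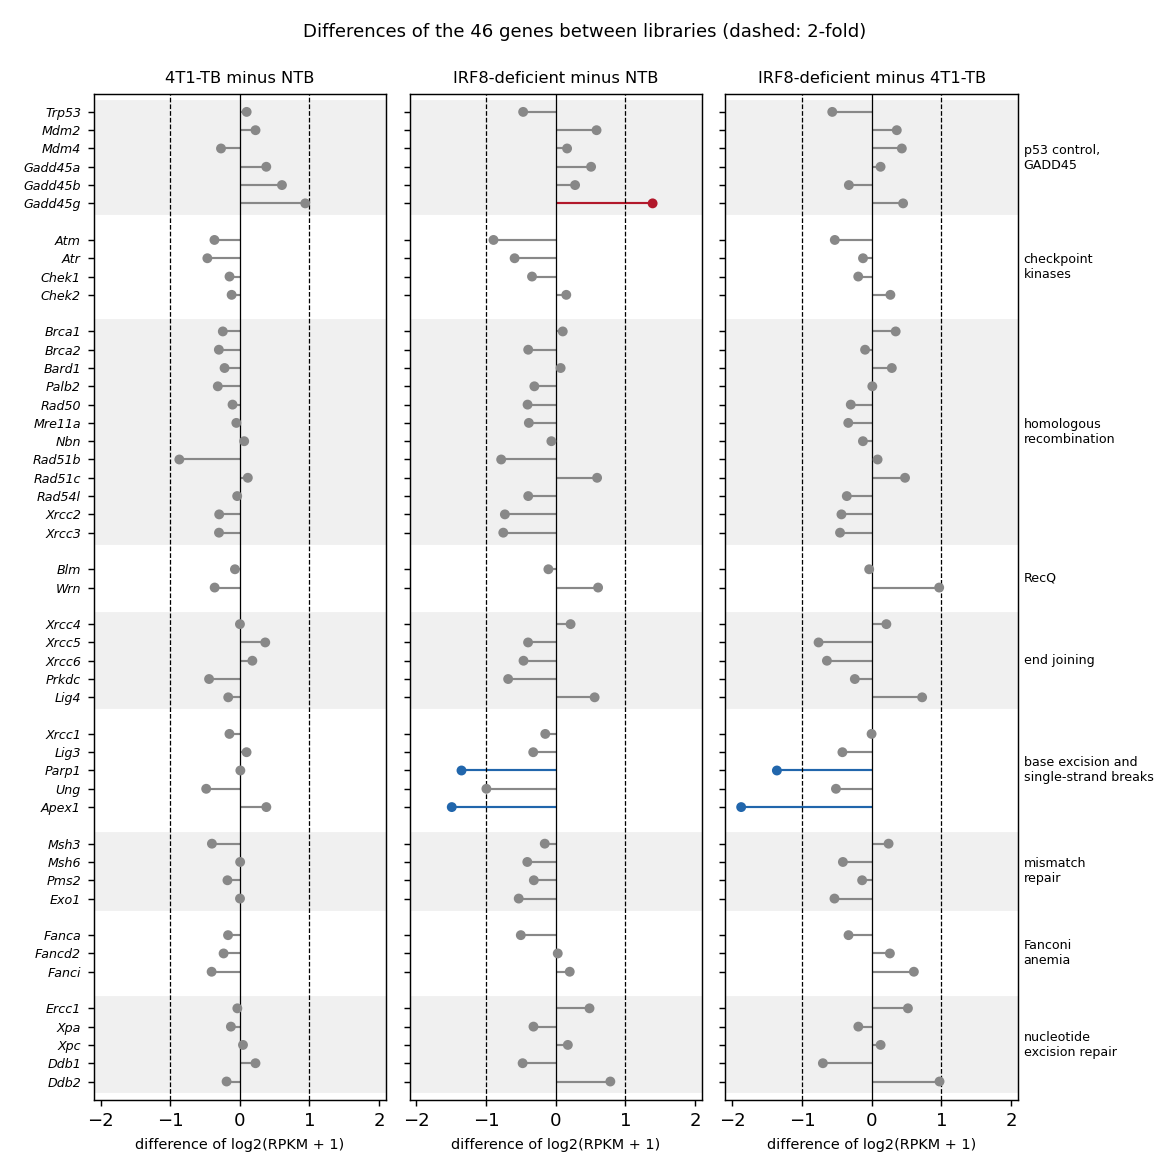
Difference of log2(RPKM + 1) for each of the 46 genes in the 3 comparisons, grouped by role, with dashed lines at 2-fold. Colored points pass 2-fold: none in 4T1-TB minus NTB, Gadd45g (1.39), Parp1 (−1.35) and Apex1 (−1.49) in IRF8-deficient minus NTB, and Parp1 (−1.36) and Apex1 (−1.87) in IRF8-deficient minus 4T1-TB.

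**Figure D3:**
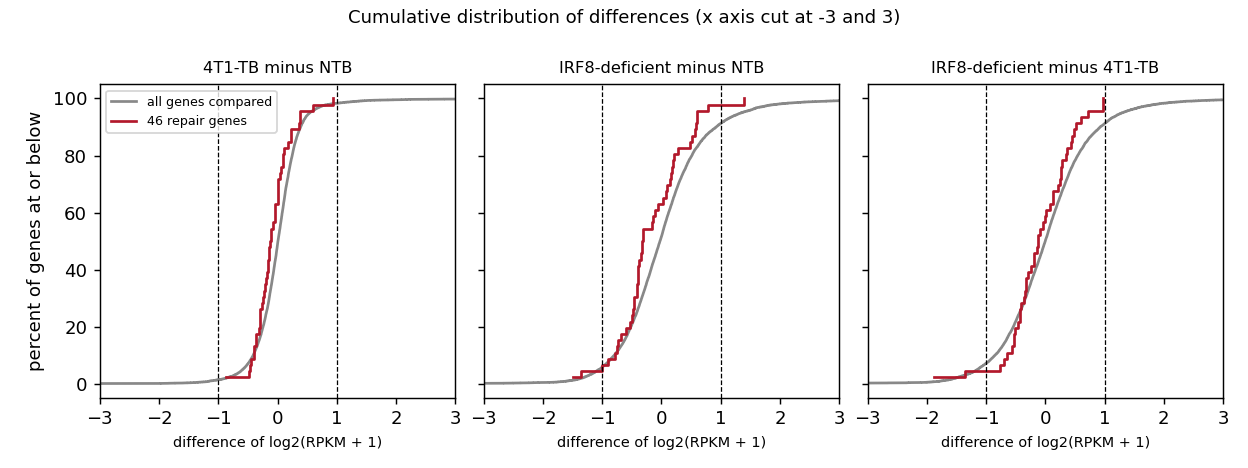
Cumulative percent of genes at or below each difference of log2(RPKM + 1), for the 46 repair genes and for the 10658 genes compared. The repair genes lie to the left of all genes around the middle (medians −0.12, −0.32 and −0.12), and few of them reach the dashed 2-fold lines.

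Base excision repair begins with a glycosylase that removes a damaged base and an endonuclease that cuts the exposed site. Apex1 encodes that endonuclease, which also acts as a redox factor. Its RPKM was 55.4 (NTB), 72.5 (4T1-TB) and 19.0 (IRF8-deficient), from 3245, 2103 and 650 reads. The IRF8-deficient library was the low one, 2.91-fold lower (interval 2.67 to 3.17) than NTB and 3.80-fold lower (interval 3.48 to 4.16) than 4T1-TB. In 4T1-TB the gene was 1.31-fold higher (interval 1.24 to 1.38) than in NTB and was not called. In mm10 Apex1 (ENSMUSG00000035960.14) spans chr14:50924968-50927139, plus strand, in GENCODE M21. There, 61.7% of its exon bases are also covered by exons of Pip4p1, which the files list as Tmem55b, on the opposite strand. The labels do not say whether libraries kept strand, so reads from both genes cannot be told apart over that stretch. Tmem55b itself had an RPKM of 9.44, 5.77 and 7.62 in NTB, 4T1-TB and IRF8-deficient.

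Parp1 encodes the main poly(ADP-ribose) polymerase, which binds breaks and recruits repair factors. It stood at 69.9 (NTB), 70.2 (4T1-TB) and 26.7 (IRF8-deficient). NTB and 4T1-TB were level, with a ratio of 1.01 (interval 0.974 to 1.04), and IRF8-deficient was 2.61-fold lower (interval 2.51 to 2.73) than NTB. Parp1 (ENSMUSG00000026496.11) spans chr1:180568924-180601254, plus strand. Ung encodes the uracil DNA glycosylase. Its values were 10.8 (NTB), 7.41 (4T1-TB) and 4.89 (IRF8-deficient), so that the control was highest and IRF8-deficient lowest. Ung was 2.20-fold lower (interval 1.92 to 2.52) than NTB in RPKM, and its difference of −0.996 on the log2(RPKM + 1) scale fell just short of a call. Xrcc1, the scaffold of single-strand break repair, had 22.6, 20.3 and 20.3 in NTB, 4T1-TB and IRF8-deficient, and its partner Lig3, the ligase, had 15.5, 16.6 and 12.2. In Lig3, 25.1% of exon bases overlap exons of Rffl on the opposite strand. All 5 genes of this group were below NTB in IRF8-deficient, with a group median of −0.996. In 4T1-TB the group median was 0.01, which turned to −0.15 by summed reads and to −0.11 without the 20 highest genes. Parp1 exceeded Xrcc1 3.09-fold in NTB and 3.46-fold in 4T1-TB but 1.32-fold in IRF8-deficient.

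The promoters of the 3 called genes are shown because those genes carry the differences. Each is the 250 bases before the RefSeq start (GRCm38.p6, plus strand, 5′ to 3′), at chr14:50924699-50924948 for Apex1, chr1:180568641-180568890 for Parp1 and chr13:51846425-51846674 for Gadd45g. Capitals mark CACGTG, the E-box, and TATAAA, the TATA box.
Apex1: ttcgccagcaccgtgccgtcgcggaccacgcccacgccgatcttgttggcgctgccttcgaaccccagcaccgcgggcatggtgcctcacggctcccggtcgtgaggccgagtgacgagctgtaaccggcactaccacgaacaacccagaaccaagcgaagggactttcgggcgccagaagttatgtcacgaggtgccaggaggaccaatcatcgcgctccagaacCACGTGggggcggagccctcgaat
Parp1: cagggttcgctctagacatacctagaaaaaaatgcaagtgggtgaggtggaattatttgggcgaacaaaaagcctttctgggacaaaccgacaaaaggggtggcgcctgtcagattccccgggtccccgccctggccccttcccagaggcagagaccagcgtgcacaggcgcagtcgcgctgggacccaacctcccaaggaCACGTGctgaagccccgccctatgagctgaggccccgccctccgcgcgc
Gadd45g: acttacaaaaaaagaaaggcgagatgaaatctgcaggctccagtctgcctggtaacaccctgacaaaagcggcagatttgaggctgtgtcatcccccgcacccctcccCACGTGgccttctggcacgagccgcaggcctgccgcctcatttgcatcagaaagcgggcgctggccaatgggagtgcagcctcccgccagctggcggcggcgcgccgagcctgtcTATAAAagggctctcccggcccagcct
Both strands were searched in windows from 250 bases before to 50 after the start, which were at hand for 37 of the 46 genes. Apex1 held CACGTG at −24, 1 and 22 from the start, Parp1 at −49 and Gadd45g at −142. The E-box was in 7 of 37 members, or 18.9%, namely these and Trp53, Gadd45b, Xrcc5 and Lig3, and in 10.9% of 8170 promoters of genes compared and 7.24% of all 27025. In IRF8-deficient against NTB the E-box genes went both ways, from −1.49 for Apex1 to 1.39 for Gadd45g. TATAAA was in 5 members (13.5%, against 6.46% of genes compared and 14.2% of all), at −27 in Gadd45g and −46 in Gadd45b.

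The E2F motif, read by cell cycle factors, was searched as TTTCCCGC, TTTCGCGC, TTTGCCGC and TTTGGCGC. It was in 18.9% of member promoters against 4.48% of genes compared and 2.32% of all. The 7 genes were Chek2, Brca2, Bard1, Rad51c, Xrcc6, Msh3 and Msh6. CCAAT was in 22 members (59.5%) against 39.6% of genes compared and 37.9% of all promoters. GGGCGG, the GC box, was in 67.6% of members, 65.5% of genes compared and 35.9% of all. TGACGTCA, bound by CREB family factors, was in 2 members (5.41%, against 3.53% of genes compared and 1.88% of all), Brca2 and Rad51c. TGAGTCA, the AP-1 site, was in 1, Mdm4 (2.70% against 3.29% and 5.17%). A match describes these letters only.

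The p53 axis and the GADD45 genes were the one role group with a median above 0 against NTB in both other libraries (0.30 in 4T1-TB and 0.39 in IRF8-deficient, 6 genes), although scaling by summed reads turned the latter to −0.11. Trp53, the p53 gene, had an RPKM of 46.4 (NTB), 49.7 (4T1-TB) and 33.3 (IRF8-deficient), so that IRF8-deficient was lowest. Mdm2 encodes the ubiquitin ligase that p53 induces and that degrades p53. It had 18.6 (NTB), 21.9 (4T1-TB) and 28.4 (IRF8-deficient), the reverse order to Trp53 between NTB and IRF8-deficient, and was 1.53-fold higher (interval 1.44 to 1.62) than in NTB. Mdm4, the related inhibitor, had 38.8, 32.0 and 43.5, lowest in 4T1-TB. None of these 3 was called in any comparison.

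The GADD45 proteins bind PCNA and stress kinases and slow the cycle after stress. Gadd45g (ENSMUSG00000021453.2, chr13:51846678-51848468, plus strand) had 1.26 (NTB), 3.34 (4T1-TB) and 4.93 (IRF8-deficient), from 61, 80 and 139 reads. NTB was lowest by a wide margin. IRF8-deficient was 3.91-fold higher (interval 2.87 to 5.37) and 4T1-TB 2.65-fold higher (interval 1.87 to 3.75). The 4T1-TB difference of 0.94 was not called with 1 added before taking logs, but was with 0.1 added. With a pseudocount of 5 the IRF8-deficient difference was 0.67 and not called. Gadd45b had 21.0 (NTB), 32.5 (4T1-TB) and 25.7 (IRF8-deficient) and was highest in 4T1-TB, 1.55-fold higher (interval 1.42 to 1.69) than NTB. Gadd45a had 9.10 (NTB), 12.1 (4T1-TB) and 13.4 (IRF8-deficient). No GADD45 gene was below NTB in either of the other libraries, except Gadd45b in IRF8-deficient when scaled by summed reads (−0.24). Gadd45b exceeded Gadd45g 16.7-fold (NTB), 9.75-fold (4T1-TB) and 5.22-fold (IRF8-deficient).

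Immediate early genes, which are induced quickly by stress and during cell isolation, were read as a comparison for the GADD45 genes. Of 9 compared, 3 were lower and none was higher in 4T1-TB than in NTB, where 1.35% and 1.67% of all genes were. The 3 were Fos (13.2 against 42.5), Fosb (0.239 against 11.4) and Jun (12.3 against 39.0). In IRF8-deficient 4 were lower than in NTB, these and Egr1 (0.362 against 3.00), and Zfp36 was higher (47.3 against 22.6). Of all genes 5.73% were lower and 8.78% higher there. By summed reads 6 were lower and 0 higher (18.2% and 4.39% of all genes), and the call of Zfp36 was also lost on rescaling without the 20 highest genes. Their medians were −0.90 in 4T1-TB and −0.83 in IRF8-deficient (−1.29 if scaled by summed reads). Any link between the lists was not tested.

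The p53 targets offer a further look at that axis. Of 25 listed, 17 were compared and 8 were too low. In IRF8-deficient against NTB 5 were called, 4 of them higher, where 14.5% of all genes were called and 8.78% higher. The list's median was 0.56 (0.12 by summed reads, with 2 higher and 3 lower, where 4.39% and 18.2% of all genes were). Trp53inp1, an autophagy and stress gene, had 21.0 against 2.89, Fas, a death receptor, 5.78 against 1.13, Cdkn1a, the p21 inhibitor of cyclin-dependent kinases, 2.63 against 0.529, and Btg2, an antiproliferative gene, 28.1 against 13.4. Aen, an apoptosis nuclease, was lower, at 6.16 against 16.9. In 4T1-TB the 1 target called (3.02% of all genes were) was Pmaip1, the proapoptotic NOXA gene, at 3.92 against 0.673. The list's median there was 0.06, or −0.04 by summed reads. By summed reads 4 targets were higher and 3 lower in IRF8-deficient than in 4T1-TB (4.76% and 14.4% of all genes). The list's median was then 0.06, against 0.38 as deposited. As deposited 5 were higher and 1 lower there (8.83% and 7.07% of all genes). They were the 5 just named for NTB and Sfn, a checkpoint protein singled out after its values were seen (6.22 against 2.48).

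All 4 checkpoint kinase genes were below NTB in 4T1-TB, and 3 of 4 in IRF8-deficient, without a call. By summed reads all 4 were below NTB in IRF8-deficient and 2 were called lower, where 18.2% of all genes were. Atm had 13.4 (NTB), 10.2 (4T1-TB) and 6.73 (IRF8-deficient) and was 1.99-fold lower (interval 1.89 to 2.09) in IRF8-deficient than in NTB, a difference of −0.89. Atr had 14.7 (NTB), 10.3 (4T1-TB) and 9.41 (IRF8-deficient), high in NTB and close together in the other libraries. Chek1, the effector of ATR, had 11.3, 10.1 and 8.73 in NTB, 4T1-TB and IRF8-deficient. Chek2, the effector of ATM, had 15.7, 14.4 and 17.5 and was the one kinase gene above NTB in IRF8-deficient, with a ratio of 1.12 (interval 1.03 to 1.21), but below it when scaled by summed reads (−0.36). Atm and Atr were near equal per length in NTB (Atr to Atm 1.10) and 4T1-TB (1.02), and 1.40 in IRF8-deficient.

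Homologous recombination was covered by 12 genes, of which none was called as deposited. Their median against NTB was −0.23 in 4T1-TB and −0.39 in IRF8-deficient. By summed reads these were −0.38 with 1 gene lower and −0.89 with 3 lower. Over all genes the medians were then −0.14 and −0.50, with 1.96% and 18.2% lower. Brca1 and Bard1, which form a ubiquitin ligase at breaks, had 19.0, 15.9 and 20.5 and 9.75, 8.23 and 10.3 in NTB, 4T1-TB and IRF8-deficient. Their ratio was 1.95, 1.93 and 1.99, so that it differed little between the libraries. Brca2, which prepares resected ends for strand exchange, had 14.5, 11.6 and 10.8 and its partner Palb2 9.86, 7.72 and 7.78, with a ratio of 1.47 in NTB and 1.39 in IRF8-deficient. In the complex that first binds and trims broken ends, Rad50 had 28.1, 26.1 and 21.0, Mre11a, the nuclease, 19.5, 18.8 and 14.7, and Nbn, the adaptor to ATM, 16.5, 17.2 and 15.7. Rad50 and Mre11a were lowest in IRF8-deficient, and Nbn varied least of the 3.

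Rad51b, Rad51c, Xrcc2 and Xrcc3, whose products form complexes that act in strand exchange, did not vary alike. Rad51b had 6.97 (NTB), 3.36 (4T1-TB) and 3.63 (IRF8-deficient), so that NTB stood apart from the other libraries. It was 2.07-fold lower (interval 1.78 to 2.42) in 4T1-TB and 1.92-fold lower (interval 1.67 to 2.21) in IRF8-deficient, and its differences of −0.87 and −0.78 were not called. Rad51c was lowest in NTB, at 1.18 (NTB), 1.36 (4T1-TB) and 2.29 (IRF8-deficient), from 175, 100 and 198 reads, and was 1.94-fold higher (interval 1.58 to 2.39) in IRF8-deficient than in NTB. Xrcc2 (11.5, 9.22 and 6.56) and Xrcc3 (6.68, 5.24 and 3.56) were both highest in NTB and lowest in IRF8-deficient. Rad51b exceeded Rad51c 5.91-fold (NTB), 2.48-fold (4T1-TB) and 1.59-fold (IRF8-deficient). Rad54l, a motor protein of strand exchange, had 18.7, 18.1 and 13.9, and 15.4% of its exon bases overlap exons of Lrrc41 on the opposite strand.

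The RecQ helicases unwind recombination intermediates. Blm was nearly flat, at 19.2, 18.2 and 17.8 in NTB, 4T1-TB and IRF8-deficient. Wrn had 19.9 (NTB), 15.3 (4T1-TB) and 30.8 (IRF8-deficient) and was highest in IRF8-deficient, 1.55-fold higher (interval 1.49 to 1.61) than NTB and 2.02-fold higher (interval 1.92 to 2.13) than 4T1-TB. Its difference of 0.97 from 4T1-TB fell short of a call.

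End joining seals breaks without a template, and its 5 genes were not called as deposited. Xrcc6 and Xrcc5 encode Ku70 and Ku80, the ring that binds DNA ends. Xrcc6 had 28.7 (NTB), 32.6 (4T1-TB) and 20.5 (IRF8-deficient) and Xrcc5 7.52 (NTB), 9.97 (4T1-TB) and 5.47 (IRF8-deficient), both highest in 4T1-TB and lowest in IRF8-deficient. The RPKM of Xrcc6 was 3.81, 3.27 and 3.75 times that of Xrcc5. Prkdc, the DNA-dependent kinase that Ku recruits, had 13.5, 9.70 and 8.05, highest in NTB. Xrcc4 (7.85, 7.86 and 9.26) and its ligase partner Lig4 (1.56, 1.28 and 2.77) were highest in IRF8-deficient, which for Xrcc4 did not hold by summed reads. Lig4 rested on 285, 116 and 295 reads and was 2.16-fold higher (interval 1.74 to 2.70) than in 4T1-TB, with a difference of 0.72.

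Mismatch repair genes stood below NTB in IRF8-deficient (4 of 4, median −0.36) without a call, or by summed reads with 1 call and a median of −0.86. Under that scaling 18.2% of all genes were lower, and their median was −0.50. Msh6 and Msh3 encode alternative subunits of the complexes that recognise mismatches. Msh6 had 36.0, 36.1 and 26.9 in NTB, 4T1-TB and IRF8-deficient and was level between NTB and 4T1-TB. Msh3 had 10.6, 7.78 and 9.40, lowest in 4T1-TB, which did not hold by summed reads. Pms2, which nicks the new strand, had 11.6, 10.1 and 9.13, and Exo1, the exonuclease, 10.1, 10.1 and 6.68. In 4T1-TB the group's median was −0.09, or −0.24 by summed reads.

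Of the Fanconi anemia genes, Fanca, part of the core ligase complex, had 12.1, 10.6 and 8.23. Fancd2 and Fanci, which the complex ubiquitinates as a pair, had 17.2, 14.5 and 17.6 and 11.0, 8.07 and 12.8 and were both lowest in 4T1-TB, which for Fancd2 did not hold by summed reads. Fanci shares 16.0% of its exon bases with Polg on the opposite strand, which had an RPKM of 24.7, 26.4 and 37.9. Fanca shares 10.5% with Zfp276 (6.43, 5.61 and 18.6). How many of the reads of Fanci and Fanca come from the overlapping genes was not measured.

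Nucleotide excision repair split between the subunits of 1 damage sensor. Ddb1, which is also an adaptor of CUL4 ubiquitin ligases, was the highest member in each library, at 131 (NTB), 153 (4T1-TB) and 93.6 (IRF8-deficient). Ddb2, the lesion-binding subunit, had 5.91 (NTB), 5.06 (4T1-TB) and 10.9 (IRF8-deficient). IRF8-deficient was the low library for Ddb1 and the high one for Ddb2, which was 1.84-fold higher (interval 1.63 to 2.09) than NTB and 2.16-fold higher (interval 1.84 to 2.54) than 4T1-TB. Its differences of 0.78 and 0.97 were not called, and 23.8% of its exon bases overlap Acp2 on the opposite strand, at 9.99, 9.99 and 9.52. Ddb1 exceeded Ddb2 22.1-fold (NTB), 30.2-fold (4T1-TB) and 8.59-fold (IRF8-deficient). Xpc, the other lesion sensor, had 34.5, 35.6 and 39.0, Xpa, which verifies the lesion, 8.91, 8.06 and 6.94, and Ercc1, of the nuclease that cuts 5′ of it, 4.28, 4.15 and 6.39.

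Further repair genes outside the 46 were read from pathway lists. Of 103, 101 were compared. None was called in 4T1-TB against NTB (3.02% of all genes were), and their median was −0.07. In IRF8-deficient against NTB 4 were called, 3 of them higher, where 14.5% of all genes were called and 8.78% higher. Their median was −0.15 (−0.62 by summed reads, with 2 higher and 18 lower, where 4.39% and 18.2% of all genes were). Among the higher genes Cdc25b, a phosphatase that starts mitosis, had 19.7 against 5.53, and Polh, a lesion bypass polymerase, 37.9 against 17.7, a call lost by summed reads and without the 20 highest genes. Poll, a gap-filling polymerase of end joining, was lower (4.67 against 10.4). The 14 other base excision genes compared held no call in that comparison and had a median of −0.26, with Neil3, a glycosylase, at 56.0 against 29.5 and Mutyh, the adenine glycosylase, at 2.58 against 5.30. Against 4T1-TB, IRF8-deficient had 5 of 101 higher and 2 lower (8.83% and 7.07% of all genes), but 2 higher and 8 lower by summed reads (4.76% and 14.4%). The higher genes included Cdc25b, Neil3, Brip1, a helicase partner of BRCA1 (16.5 against 7.76), and Ube2t, the Fanconi pathway's conjugating enzyme (16.1 against 7.03), although Neil3, Brip1 and Ube2t were not called by summed reads. Lower were Gtf2h3 and Gtf2h4, subunits of the TFIIH helicase complex (2.83 against 7.35 and 5.77 against 13.2).

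**Figure D4:**
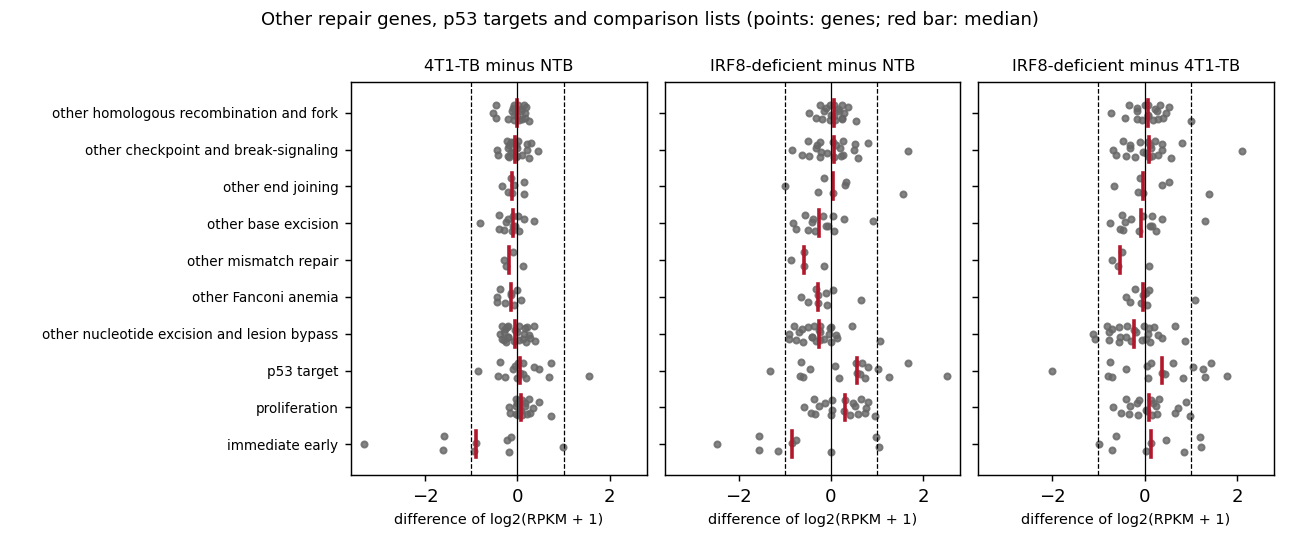
Difference of log2(RPKM + 1) for repair genes outside the 46, p53 targets, proliferation genes and immediate early genes in the 3 comparisons. Points are genes, red bars are list medians and dashed lines mark 2-fold. In IRF8-deficient minus NTB the p53 targets have a median of 0.56 (0.12 by summed reads) and the immediate early genes one of −0.83.

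Proliferation genes were read because many repair genes are transcribed with the cell cycle. None of 20 was called in any comparison as deposited. Their median against NTB was 0.08 in 4T1-TB and 0.30 in IRF8-deficient. By summed reads it turned to −0.07 and −0.22, and 1 was lower in IRF8-deficient (18.2% of all genes were). Mki67, the Ki-67 antigen gene, had 189.8, 186 and 368 in NTB, 4T1-TB and IRF8-deficient, and Mcm3, of the replicative helicase, 106, 113 and 70.4. The members' median in IRF8-deficient lay below that of the proliferation list under both scalings (−0.32 and −0.80). The late neutrophil markers had a median difference of 4.99 in the same comparison, and the 6 progenitor markers one of −0.69, with Mpo, the myeloperoxidase gene, at 4012 against 6811. In 4T1-TB 5 of the 10 neutrophil markers were called higher than in NTB, where 1.67% of all genes were. Of the 10, 7 lay above NTB and 3 below. Whether these markers bear on the repair gene values was not tested.

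The scaling of the libraries decides how many members pass. The RPKM values imply library sizes of 1.04, 0.935 and 0.718 times the summed recovered reads in NTB, 4T1-TB and IRF8-deficient. When summed reads were used instead, the median of all genes moved to −0.50 in IRF8-deficient against NTB, −0.33 against 4T1-TB and −0.14 in 4T1-TB against NTB. Under that scaling 11 members were lower and 1 higher in IRF8-deficient than in NTB, while 18.2% of all genes were lower and 4.39% higher (5.73% and 8.78% as deposited). Against 4T1-TB it was 14.4% lower and 4.76% higher. The 11 were Apex1, Parp1, Ung, Atm, Atr, Prkdc, Rad51b, Xrcc2, Xrcc3, Exo1 and Ddb1. The members' median was then −0.80. Some small differences changed sign between scalings, for 8 of 46 members in 4T1-TB against NTB (Trp53, Nbn, Xrcc4, Lig3, Parp1, Msh6, Exo1 and Xpc). In IRF8-deficient it was 9 against NTB (Mdm4, Gadd45b, Chek2, Brca1, Bard1, Xrcc4, Fancd2, Fanci and Xpc). Against 4T1-TB it was 12 (Mdm2, Gadd45a, Chek2, Brca1, Bard1, Palb2, Rad51b, Xrcc4, Xrcc1, Msh3, Fancd2 and Xpc). The counting intervals hold for the deposited scaling. In IRF8-deficient against NTB, Apex1 and Parp1 were called lower and Gadd45g higher under each of the 4 scalings. By summed reads Gadd45g only just passed, at 1.01, whereas Apex1 and Parp1 stood at −2.01 and −1.88.

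**Figure D5:**
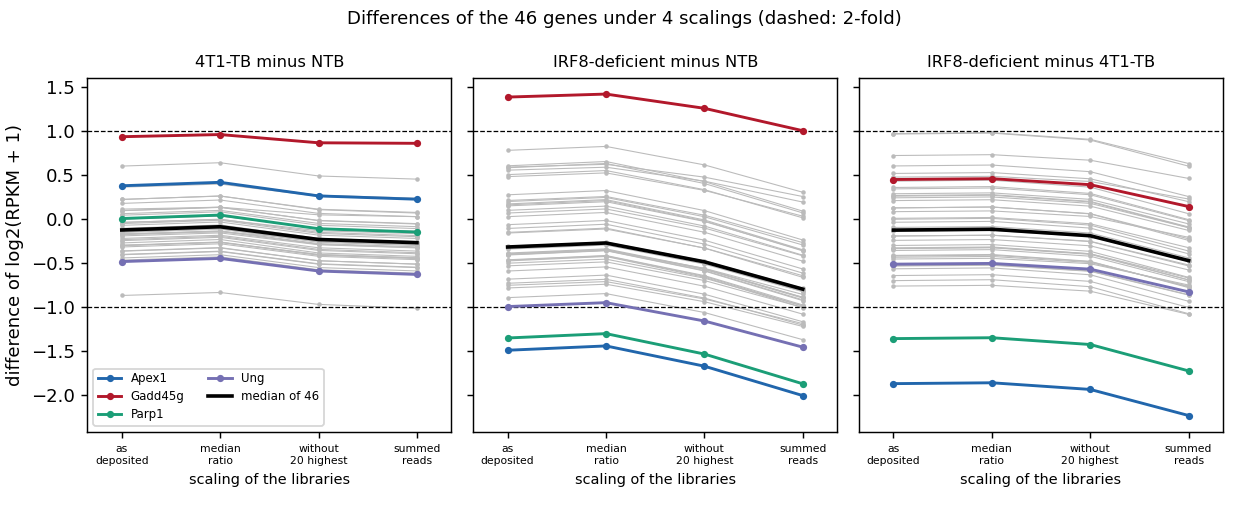
Difference of log2(RPKM + 1) of the 46 genes under 4 scalings of the libraries, in the 3 comparisons. Gray lines are single genes, colored lines are Apex1, Parp1, Gadd45g and Ung, the black line is the median of the 46 and dashed lines mark 2-fold. In IRF8-deficient minus NTB the median moves from −0.32 as deposited to −0.80 by summed reads.

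Across the 46 genes, longer gene models tended to lower differences in 4T1-TB against NTB (Spearman's rho −0.50 over 46 genes, −0.20 over all 10658). In IRF8-deficient against NTB rho was −0.18 over the 46 and 0.05 over all genes. The genes share their libraries and are not independent points.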

How the data were processed

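RNA was total RNA from sorted progenitors, 1 library per group. The deposited tables give an RPKM per gene symbol. The submitters' processing notes list TopHat2 2.0.13, HTSeq 0.6.1, edgeR 3.12.1, cutadapt 1.2.1, Picard 1.97, CASAVA 1.8.2 and the mm10 build, without saying what each did. The gene annotation, strand setting and form of library size were not given in those notes or the labels.

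Values were computed in Python 3.11.15 with pandas 2.3.3, scipy 1.17.1 and numpy 2.4.6 and drawn with matplotlib 3.10.9. RPKM values of a gene are whole multiples of the value of 1 read, so reads and gene lengths were recovered for all 15158 genes above 0. The scale was set on shorter, well-read genes with an annotated length. Among those genes, lengths came out whole within 0.005 bases without a common factor for 88.5%. A factor above 1 was used for 8 members. Genes whose length did not come out whole with any factor tried were kept without one. Lengths lay between 0.8 and 1.25 times the annotated exon length for 91.5% of 14553 genes and for 43 of 46 members. Annotated lengths also gave the starting scale and chose the factor of some genes, so this nearness is partly built in and is no independent check. A wrong factor would change a gene's reads and interval but not its RPKM. Depth put 1 read of a median gene at an RPKM of 0.00768 (NTB), 0.0155 (4T1-TB) and 0.0132 (IRF8-deficient).

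Differences are of log2(RPKM + 1) among 10658 genes with RPKM of at least 1 in a library, called at 1 or more in size. Folds in the text are ratios of RPKM. Intervals are exact, Clopper-Pearson for ratios and Poisson for levels, and PCR copies are counted as reads. On simulated reads for 4T1-TB against NTB over 15158 genes, 98.9% were recovered exactly. The changed genes were drawn only from those with an RPKM of at least 5 in NTB, so changes of lower genes were not covered. All genes changed 4-fold, 2.5-fold or 0.25-fold were called, as were 78% of those at 0.4-fold and 6 of 10279 unchanged genes. Simulated reads held counting error only, around the same share of reads in each library for unchanged genes. Variation between animals was left out, so these counts give no rate of false calls for the real libraries.

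Promoter windows are from RefSeq, 1 per symbol, and gene positions and exon overlaps from GENCODE M21. The members and lists were chosen with earlier results of these data known. Any member may be named, and of each other list up to 6 genes with the largest difference in any comparison. Mpo, Cd79b and Sfn were named after their values were seen. Some genes of the lists are not reported here. The 10 alternatives varied the pseudocount, scaling, filter, fold and interval.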

Additional observations from a re-analysis of the deposited data

How the results depend on the processing

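No paired analysis was possible because each group has 1 library, and no library could be left out. Of the recomputed counts, medians and values of Apex1, Parp1, Gadd45g and Ung no called value or median changed direction, 163 moved little and 44 moved further. With a pseudocount of 0.1, 1 member was higher (Gadd45g) and 1 lower (Rad51b) in 4T1-TB than in NTB (2.65% and 3.32% of all genes). In IRF8-deficient 3 were then higher than in 4T1-TB (Ddb2, Lig4 and Wrn, 11.6% of all genes). Ung joined Apex1 and Parp1 as lower in IRF8-deficient than in NTB (10% of all genes). With a pseudocount of 5, 0 members were higher in IRF8-deficient than in NTB (4.94% of all genes). A filter at an RPKM of at least 5 left 43 members, without Gadd45g, and 0 were higher there (9.29% of all genes). A 4-fold rule left 0 members higher or lower in any comparison, as the largest difference was −1.87 for Apex1. Under it 0.488% of all genes were called in 4T1-TB against NTB, 2.29% in IRF8-deficient against NTB and 2.14% against 4T1-TB. A 1.5-fold rule gave 2 higher and 1 lower in 4T1-TB against NTB (4.37% and 4.97% of all genes), 5 higher and 9 lower in IRF8-deficient against NTB (17.4% and 16.7%), and 4 higher and 5 lower against 4T1-TB (18.6% and 18.1%). Rescaling without the 20 highest genes gave 4 lower in IRF8-deficient than in NTB (8.77% of all genes), with members' medians of −0.49 there and −0.23 in 4T1-TB against NTB. Scaling by summed reads gave 11 lower in IRF8-deficient than in NTB and 5 lower than in 4T1-TB (18.2% and 14.4% of all genes). In 4T1-TB 1 was lower than in NTB (1.96% of all genes). The members' medians were then −0.80, −0.47 and −0.27. Which scaling is nearer to the cells' RNA was not tested. The low reads of Gadd45g, Rad51c and Lig4 limit their precision.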
